A study of Homo sapiens with 12 samples.

Results

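Amino acids enter and leave a cell through transporters of the solute carrier (SLC) families, and 10 of these genes were followed in oral squamous cell carcinoma cells treated with squamocin, an annonaceous acetogenin isolated from Annona squamosa. The genes, found by their names in the deposited tables, were SLC3A2, SLC7A11, SLC7A5, SLC7A6, SLC7A1, SLC1A5, SLC1A4, SLC38A1, SLC38A2 and SLC43A1. All 10 were among the 29657 genes listed for SCC15 cells and the 31055 listed for SCC25 cells, and all 10 had the mean of at least 10 normalized counts that a test required. SCC15 and SCC25 are established head and neck squamous cell carcinoma (HNSCC) lines, labelled as wild type, and each was given DMSO, the solvent control, or squamocin for 24 h, with 3 libraries per treatment and cell line and 12 in all. In the labels the treatment appears as ACGs, short for annonaceous acetogenins, and the methods of the study give squamocin at 10 µg/mL. Each line is a single cell line, and no label says that the 3 libraries of a group came from separate cultures, so that p-values measure the spread between these libraries, which may be technical.

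SLC3A2 encodes CD98hc (4F2hc), a glycoprotein heavy chain that transports nothing itself but carries light chains to the plasma membrane, among them SLC7A5 (LAT1, an exchanger of leucine and other large neutral amino acids), SLC7A11 (xCT, which imports cystine in exchange for glutamate) and SLC7A6 (y+LAT2, which exchanges arginine for glutamine). SLC1A5 (ASCT2) and SLC1A4 (ASCT1) exchange small neutral amino acids, SLC38A1 (SNAT1) and SLC38A2 (SNAT2) take up glutamine and alanine together with sodium, SLC7A1 (CAT1) imports arginine and lysine, and SLC43A1 (LAT3) passes branched-chain amino acids down their gradient. Cystine supplies cysteine for glutathione, glutamine feeds the mitochondria, and leucine and arginine are read by the mTORC1 pathway. Several of these genes are known targets of ATF4, the transcription factor of the amino acid and stress response, of NRF2, the factor of the oxidative stress response, or of MYC.

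The libraries held 16665563 to 22748845 reads on genes. The values used are normalized counts, that is, the reads of a gene divided by 1 size factor for its library, set within each cell line by the authors, so that levels were not tested between the lines. The scaled totals had a median of 15511759 for DMSO against 20826159 for squamocin libraries of SCC15, and of 18272805 against 21182014 for those of SCC25. Giving every library the same total instead lowered the median log2 fold change of all tested genes by 0.49 in SCC15 and by 0.21 in SCC25, and calls of the 10 genes that change with this choice are given with each gene. In bulk libraries, a change of the RNA per cell and a change of which cells remain cannot be told apart. Squamocin replicate 3 of SCC15 stood apart, since chi-square per degree of freedom against the other squamocin libraries of that line was 64.1 and 56.8, against 1.67 to 9.95 in the 10 other pairs of libraries of a group. All 9 squamous epithelial markers had a mean of at least 10 in SCC25, whereas KRT5 and DSG3 stayed below 10 in SCC15 with either treatment and EPCAM was below 10 with squamocin, while KRT17, another of these markers, went from a mean of 112298 with DMSO to 260258 with squamocin in SCC15 and from 6064 to 18369 in SCC25. The 9 markers summed to between 113058 and 119312 normalized counts per DMSO library and between 208842 and 362931 per squamocin library in SCC15, and to between 30499 and 30748 and between 55118 and 57846 in SCC25. In SCC15, KRT17 made up most of this sum. KRT14 and SFN rose there by 0.89 and 0.82 on the log2 scale. The log2 fold changes of KRT6A, TP63, CDH1 and EPCAM were -0.21, -0.72, -0.10 and -0.47 (limma, adjusted p from 0.157 to 0.533). In SCC25, those of KRT5, CDH1 and DSG3 were -0.25, -0.46 and -0.13. Those of KRT6A, KRT14, TP63, EPCAM and SFN there were 0.59 to 1.55. In SCC15, TP63 and EPCAM had DMSO means of only 17.5 and 11.4. The 7 fibroblast markers summed to between 721 and 795 normalized counts per DMSO library and between 487 and 490 per squamocin library in SCC15, where DCN and COL3A1 were present, and to between 774 and 814 and between 1075 and 1228 in SCC25, and COL3A1 and DCN were below 10 in SCC25. Of 4 endothelial markers, PECAM1 went from a mean of 166 to 72.04 in SCC15, and in SCC25 the summed markers went from between 233 and 296 to between 19.8 and 37.7, with CDH5 at 166 and then 13.2. Leukocyte markers summed to at most 34.2 in any library. The part of these markers in the results was not tested.

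The sequences upstream of the transcription starts of these genes were examined for the letters that the factors above are known to read. RefSeq (GRCh38.p14) gave starts for 9 of the 10 genes, all but SLC7A11. The 250 bases before each start were searched on both strands for the core of the C/EBP-ATF response element (TGATGNAA), the core of the antioxidant response element (TGACNNNGC, which can overlap an AP-1 motif) and the E-box CACGTG, which MYC can bind. The 9 genes had 16 windows, since some have several starts. Of these windows, 1 (of SLC1A5) held the first motif, 4 (of SLC3A2, SLC7A1, SLC1A5 and SLC7A6) the second and 3 (of SLC7A5, SLC1A5 and SLC43A1) the third. Among 35116 windows of the same length over all genes, the shares were 3.14%, 10.9% and 6.34%. All matches of SLC1A5 lay inside the gene, before internal starts. Its window chr19:46787294-46787543 held the antioxidant core and the E-box, and chr19:46784815-46785064 held the C/EBP-ATF core. These windows contain 193 and 91 exonic bases. The SLC1A5 window just before the gene, chr19:46788595-46788844, held none of the motifs. The matching window of SLC3A2 also lies inside its gene. Below are 4 windows, those of the heavy chain, of 2 of its light chains and of SLC38A2, whose response differed most between the cell lines. They are written 5′ to 3′ on the strand of the gene and end at the base before the start, with matches in capitals.
SLC3A2: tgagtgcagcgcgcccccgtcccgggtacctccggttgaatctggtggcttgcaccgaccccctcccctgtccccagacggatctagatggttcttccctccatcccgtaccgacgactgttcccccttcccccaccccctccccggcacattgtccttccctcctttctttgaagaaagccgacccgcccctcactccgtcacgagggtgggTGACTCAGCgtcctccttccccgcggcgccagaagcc
SLC7A5: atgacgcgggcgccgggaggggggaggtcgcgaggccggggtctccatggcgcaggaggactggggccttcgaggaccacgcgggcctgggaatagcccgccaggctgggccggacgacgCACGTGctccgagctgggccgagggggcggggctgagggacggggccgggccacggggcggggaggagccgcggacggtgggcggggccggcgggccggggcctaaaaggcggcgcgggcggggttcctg
SLC7A6: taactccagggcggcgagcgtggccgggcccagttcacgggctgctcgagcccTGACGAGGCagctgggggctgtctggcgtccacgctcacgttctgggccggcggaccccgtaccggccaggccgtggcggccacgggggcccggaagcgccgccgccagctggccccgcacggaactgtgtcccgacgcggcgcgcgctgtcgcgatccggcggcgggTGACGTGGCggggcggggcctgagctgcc
SLC38A2: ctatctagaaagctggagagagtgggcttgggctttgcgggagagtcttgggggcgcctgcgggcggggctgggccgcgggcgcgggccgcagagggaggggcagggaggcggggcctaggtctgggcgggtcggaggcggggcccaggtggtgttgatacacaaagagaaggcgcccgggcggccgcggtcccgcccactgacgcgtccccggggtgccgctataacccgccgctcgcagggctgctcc
The window of SLC3A2 shown is 1 of its 3, chr11:62881449-62881698 on the plus strand, and holds TGACTCAGC 37 to 29 bases before the start, while the other two held none of the motifs. That of SLC7A5 is chr16:87869508-87869757 on the minus strand and holds the E-box 130 to 125 bases before the start. The window of SLC7A6, chr16:68264276-68264525 on the plus strand, holds TGACGAGGC at 197 to 189 and TGACGTGGC at 29 to 21 bases before the start. That of SLC38A2, chr12:46372774-46373023 on the minus strand, held none of the 3 motifs. A match is a description of the letters and not of binding, which was not measured. Sequence outside these windows was not searched, so a window without a match does not show that the gene lacks the motif.

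Squamocin raised 5 of the 10 transporter genes and lowered 4 in each cell line, but the genes were not the same ones. SLC3A2, SLC7A11 and SLC7A5, the heavy chain and its cystine and leucine light chains, rose in both lines (SLC7A5 in SCC15 not with equal library totals), and SLC7A1 and SLC7A6, which carry cationic amino acids, fell in both. The glutamine carriers SLC1A5 and SLC38A2 rose in SCC15 and fell in SCC25, and SLC38A1 did the reverse, with the same signs but rises not past the threshold under equal library totals. SLC1A4 fell in SCC15, with a log2 fold change of 0.041 in SCC25 that did not pass the threshold, and SLC43A1 passed it, as higher, in SCC25 but not in SCC15. A gene was called where limma, run on log2-transformed normalized counts, gave an adjusted p below 0.05 over all genes tested. Among all tested genes, 30.9% were called higher and 30.0% lower in SCC15 (61.0% in all), and 38.3% and 38.5% in SCC25 (76.8% in all) beside 9 of the 10 called in each line. The 3 squamocin libraries did not overlap the 3 DMSO libraries for 9 of the 10 in SCC15 and 8 in SCC25, as for 70.6% and 79.0% of all tested genes. Calls in both lines were higher for 22.1% of genes, lower for 18.6% and opposite for 10.1%, against 3, 2 and 3 of the 10 transporters. The median log2 fold change of the 10 was 0.076 in SCC15 and 0.15 in SCC25, and that of all tested genes 0.012 and -0.015. Scaled to equal totals, 2 of the 10 were called higher and 5 lower in SCC15, and 3 and 4 in SCC25, whereas without squamocin replicate 3 of SCC15 the counts in that line were again 5 and 4.

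**Figure D1:**
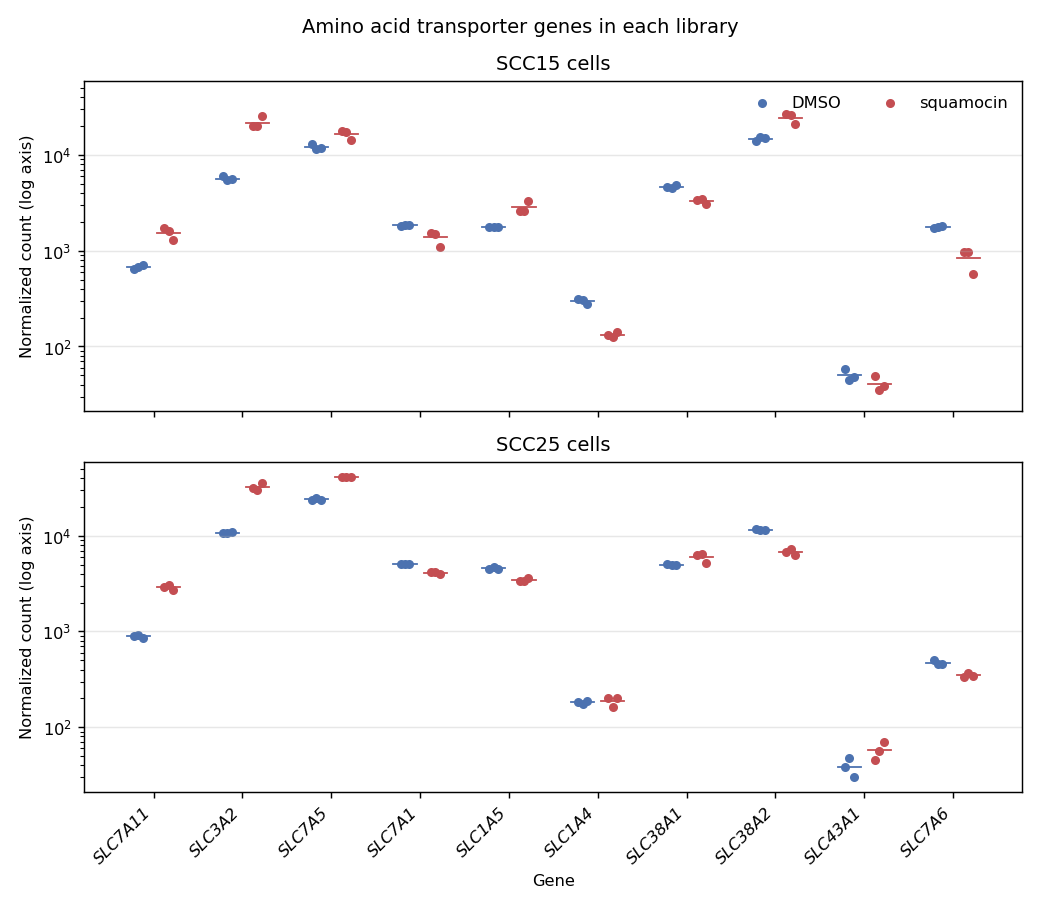
Normalized counts (log axis) of the 10 transporter genes in each library of SCC15 cells (top) and SCC25 cells (bottom). Points are libraries, with DMSO in blue and squamocin in red, and bars are the means of 3 libraries. SLC3A2 and SLC7A11 stand well above DMSO in both lines, and the points of the treatments overlap for SLC43A1 in both lines and for SLC1A4 in SCC25.

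The heavy chain gene SLC3A2 (ENSG00000168003, chr11:62856102-62888875, plus strand) had the highest fold change of the 10 in SCC15. Its normalized counts there were 5995, 5416 and 5564 with DMSO and 19839, 19884 and 25324 with squamocin, with squamocin replicate 3 the highest. In SCC25, they were 10622, 10584 and 10867 with DMSO and 31367, 30319 and 35485 with squamocin. The treatments were far apart in each line, and every squamocin library lay above every DMSO library. The log2 fold change was 1.93 ± 0.13 (SE, n = 3 per treatment) in SCC15 (limma, adjusted p = 3.33e-05) and 1.60 ± 0.052 in SCC25 (adjusted p = 4.25e-11). The response of SCC15 exceeded that of SCC25 by 0.33 (95% interval 0.020 to 0.65), which missed the threshold (limma, adjusted p = 0.0700). Without squamocin replicate 3 of SCC15 that difference was 0.22 and passed it (limma, adjusted p = 0.0181).

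SLC7A11 (ENSG00000151012, chr4:138164097-138242349, minus strand), the cystine importer, had the highest fold change in SCC25. In SCC15, DMSO libraries held 648, 675 and 718 normalized counts and squamocin libraries 1719, 1592 and 1283. In SCC25, they held 901, 913 and 848 with DMSO and 2936, 3058 and 2687 with squamocin. Squamocin replicate 3 was the lowest of the treated libraries in both lines, and still well above DMSO. Squamocin thus changed SLC7A11 by 1.16 ± 0.12 on the log2 scale in SCC15 (limma, adjusted p = 0.000231) and 1.70 ± 0.057 in SCC25 (adjusted p = 5.23e-11). The response was lower in SCC15 by 0.54 on the log2 scale (limma, adjusted p = 0.00586). An antisense gene, SLC7A11-AS1, shares 865 bases with the exons of SLC7A11, which is 8.97% of them, and the library kit named in the labels does not mark the strand of a read. SLC7A11-AS1 held 8.5, 19.0 and 7.9 normalized counts with DMSO and 422, 429 and 136 with squamocin in SCC15 (log2 fold change 4.62, limma, adjusted p = 0.000274). In SCC25 it held 8.9, 11.7 and 8.9 with DMSO and 55.9, 49.9 and 89.9 with squamocin (2.58, adjusted p = 3.59e-06). Its counts with squamocin were at most 429 beside at least 1283 for SLC7A11, and how the reads of the shared bases divide between the genes was not tested.

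SLC7A5 (ENSG00000103257, chr16:87830023-87869488, minus strand), the leucine exchanger, had a smaller fold change than its heavy chain in both lines. Its normalized counts in SCC15 were 12953, 11558 and 11873 with DMSO and 17914, 17502 and 14269 with squamocin. In SCC25, they were 23722, 24704 and 23578 with DMSO and 41234, 40544 and 41128 with squamocin. The treatments did not overlap in either line, with squamocin replicate 3 of SCC15 the nearest to DMSO. This gave a log2 fold change of 0.44 ± 0.12 in SCC15 (limma, adjusted p = 0.0160) and 0.77 ± 0.036 in SCC25 (adjusted p = 8.81e-10). The call in SCC15 was lost when squamocin replicate 2, DMSO replicate 2 or DMSO replicate 3 was left out (limma, adjusted p = 0.0548, 0.0740 and 0.0709), and with equal library totals the log2 fold change there was -0.054. The difference between the lines was -0.33 (limma, adjusted p = 0.0570), but -0.62 with equal library totals (adjusted p = 0.0106) and -0.22 without squamocin replicate 3 of SCC15 (adjusted p = 0.00427).

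SLC7A6 (ENSG00000103064, chr16:68264516-68301823, plus strand), the third light chain, fell where its partners rose. In SCC15, normalized counts went from 1709, 1751 and 1797 with DMSO to 962, 971 and 570 with squamocin. In SCC25, they went from 498, 454 and 459 to 338, 369 and 344. Squamocin replicate 3 was far below its partners in SCC15, and the treatments did not overlap in either line. Its log2 fold change came to -1.11 ± 0.20 in SCC15 (limma, adjusted p = 0.00239) and -0.42 ± 0.075 in SCC25 (adjusted p = 0.000212). The lines differed by -0.69 (limma, adjusted p = 0.0205), and by -0.43 without squamocin replicate 3 of SCC15 (adjusted p = 0.000305). The gene SLC7A6OS lies on the opposite strand and shares 3372 bases with SLC7A6, 44.4% of its exons. SLC7A6OS also fell, by 0.26 on the log2 scale in SCC15 (limma, adjusted p = 0.0344) and by 1.46 in SCC25 (adjusted p = 1.55e-06), and over these bases the reads of the 2 genes cannot be told apart. An unnamed gene on the opposite strand, ENSG00000279649, shares 845 bases, 11.1% of the SLC7A6 exons. The values of SLC7A6 per kilobase of exon given below take in all of these bases.

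The light chains were then set against SLC3A2 within each library, as a ratio of normalized counts per kilobase of exon, a quantity on which the scaling of the libraries has no bearing. The ratio of SLC7A5 to SLC3A2 in SCC15 was 2.90, 2.86 and 2.86 with DMSO and 1.21, 1.18 and 0.756 with squamocin. In SCC25, it was 3.00, 3.13 and 2.91 with DMSO and 1.76, 1.79 and 1.56 with squamocin. Fewer SLC7A5 transcripts per SLC3A2 transcript were thus counted in all 6 treated libraries, by a mean log2 change of -1.49 in SCC15 and -0.82 in SCC25 (exact permutation test, two-sided, p = 0.1 in each, the smallest that 3 against 3 libraries allow). The ratio of SLC7A6 to SLC3A2 had a mean log2 change of -3.04 in SCC15 and -2.02 in SCC25 (exact p = 0.1 in each). For SLC7A11 the ratio in SCC15 was 0.0799 ± 0.0073 (SD, n = 3) with DMSO and 0.0480 ± 0.013 with squamocin, with no overlap of the treatments (exact p = 0.1). In SCC25 the same ratio was 0.0550 ± 0.0029 with DMSO and 0.0597 ± 0.0086 with squamocin, with overlap (exact p = 0.5). Since all annotated exons of SLC3A2 add up to 6.392 kb and its canonical transcript to 1.885 kb, the level of each ratio depends on the length used, and with canonical transcripts the ratio of SLC7A5 to SLC3A2 was 0.887 with DMSO and 0.324 with squamocin in SCC15, whereas in SCC25 it was 0.929 and 0.526. The log2 changes of the single ratios are the same with either length.

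**Figure D2:**
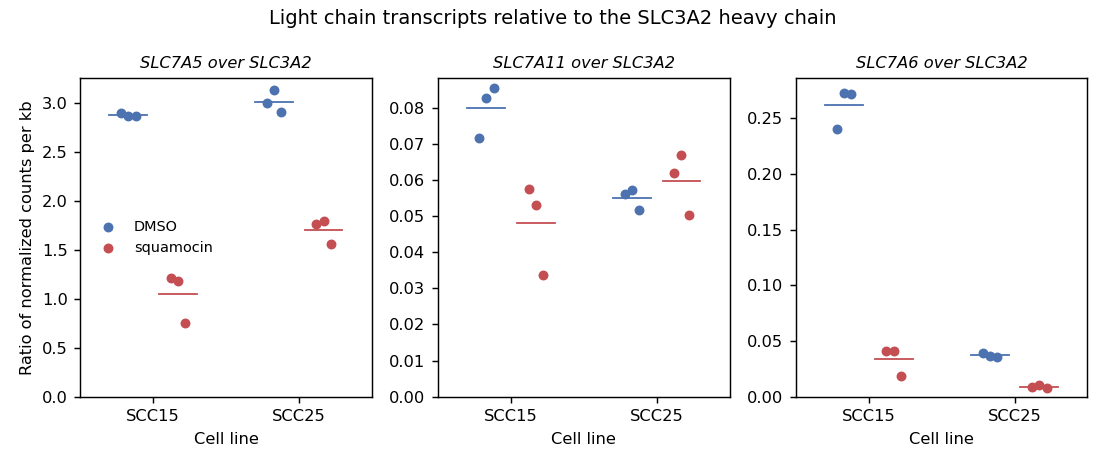
Ratio of the light chain genes SLC7A5, SLC7A11 and SLC7A6 to the heavy chain gene SLC3A2 in each library, in normalized counts per kilobase of exon on linear axes from 0. Points are libraries, with DMSO in blue and squamocin in red, and bars are means of 3 libraries. The SLC7A5 ratio lies between 2.86 and 3.13 in the DMSO libraries and between 0.756 and 1.79 in the squamocin libraries, whereas the SLC7A11 ratio overlaps in SCC25.

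SLC7A1 (ENSG00000139514, chr13:29509410-29595688, minus strand), the arginine and lysine importer, fell slightly in both lines. Its normalized counts in SCC15 were 1803, 1860 and 1867 with DMSO and 1538, 1507 and 1092 with squamocin. In SCC25, they were 5097, 5087 and 5082 with DMSO and 4150, 4201 and 4011 with squamocin. The treatments did not overlap, and squamocin replicate 3 of SCC15 was again the lowest. The fitted log2 fold change was -0.44 ± 0.14 in SCC15 (limma, adjusted p = 0.0272) and -0.30 ± 0.038 in SCC25 (adjusted p = 1.01e-05), and a difference between the lines was not detected (-0.13, 95% interval -0.45 to 0.19, adjusted p = 0.486). The call in SCC15 was lost without DMSO replicate 1, 2 or 3 (limma, adjusted p = 0.0715, 0.0827 and 0.0848), while without squamocin replicate 3 the fall was smaller, at -0.28, and passed (adjusted p = 3.28e-05).

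The neutral amino acid exchangers SLC1A5 and SLC1A4 responded in opposite directions in SCC15. SLC1A5 (ENSG00000105281, chr19:46774883-46788594, minus strand), the main glutamine exchanger of many tumour cells, held 1763, 1766 and 1750 normalized counts with DMSO and 2620, 2572 and 3311 with squamocin in SCC15. In SCC25, it held 4463, 4726 and 4494 with DMSO and 3340, 3351 and 3575 with squamocin. Every treated library thus lay above DMSO in SCC15 and below it in SCC25. Its log2 fold change was 0.68 ± 0.11 in SCC15 (limma, adjusted p = 0.00165) and -0.41 ± 0.044 in SCC25 (adjusted p = 2.14e-06). The difference between the lines was 1.09 (95% interval 0.82 to 1.36, limma, adjusted p = 1.36e-05). The rise in SCC15 was 0.18 with equal library totals and missed the threshold (limma, adjusted p = 0.0663). An unnamed antisense gene, ENSG00000275719, shares 23.4% of the exons of SLC1A5 and held at most 13.7 normalized counts in any library. How the reads of the shared bases were assigned was not tested.

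SLC1A4 (ENSG00000115902, chr2:64988477-65023865, plus strand), which carries serine, alanine and cysteine, held 310, 305 and 276 normalized counts with DMSO and 131, 127 and 142 with squamocin in SCC15. In SCC25, it held 185, 176 and 186 with DMSO and 200, 164 and 202 with squamocin. The treatments were separate in SCC15 and overlapped in SCC25. SLC1A4 changed by -1.15 ± 0.11 on the log2 scale in SCC15 (limma, adjusted p = 0.000159) with an estimate of 0.041 in SCC25 (95% interval -0.20 to 0.28, adjusted p = 0.744). The lines differed by -1.19 (95% interval -1.53 to -0.86, limma, adjusted p = 4.04e-05).

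SLC38A2 and SLC38A1 moved against each other, and in each line in the opposite sense. SLC38A2 (ENSG00000134294, chr12:46358189-46372867, minus strand), the sodium-coupled carrier that cells are known to induce when amino acids run short, held 14054, 15434 and 15016 normalized counts with DMSO and 26502, 26022 and 21221 with squamocin in SCC15. In SCC25, it held 11670, 11500 and 11506 with DMSO and 6821, 7235 and 6357 with squamocin. The treated libraries lay above all DMSO libraries in SCC15 and below all of them in SCC25. For SLC38A2 the log2 fold change was 0.72 ± 0.12 in SCC15 (limma, adjusted p = 0.00195) and -0.77 ± 0.046 in SCC25 (adjusted p = 1.01e-08). The difference of 1.49 between the lines (95% interval 1.20 to 1.77, limma, adjusted p = 1.65e-06) was in size above that of 90.6% of the 14454 genes tested in both. At equal library totals the rise in SCC15 was 0.22 and missed the threshold (limma, adjusted p = 0.249).

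SLC38A1 (ENSG00000111371, chr12:46183063-46270017, minus strand), the neighbouring gene of the same family, held 4639, 4568 and 4825 normalized counts with DMSO and 3376, 3507 and 3097 with squamocin in SCC15. In SCC25, it held 5115, 4902 and 4954 with DMSO and 6218, 6474 and 5192 with squamocin. The treatments were separate in both lines, but in SCC25 squamocin replicate 3 lay just above the highest DMSO library. For SLC38A1 the log2 fold change was -0.49 ± 0.086 in SCC15 (limma, adjusted p = 0.00207) and 0.25 ± 0.067 in SCC25 (adjusted p = 0.00459), a difference of -0.74 (adjusted p = 0.000211). Under equal library totals the rise in SCC25 was 0.042 and did not pass (limma, adjusted p = 0.560).

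SLC43A1 (ENSG00000149150, chr11:57484534-57515786, minus strand) had the lowest counts of the 10, from 31 reads in a library. It held 58.0, 44.3 and 48.0 normalized counts with DMSO and 48.7, 35.3 and 38.6 with squamocin in SCC15. In SCC25, it held 38.7, 47.7 and 30.1 with DMSO and 45.8, 56.2 and 69.9 with squamocin. The treatments overlapped in both lines. The log2 fold change was -0.29 ± 0.21 in SCC15 (limma, adjusted p = 0.256) and 0.55 ± 0.23 in SCC25 (adjusted p = 0.0455). With equal library totals both calls changed, to -0.78 and lower in SCC15 (limma, adjusted p = 0.0179) and to 0.35 and not past the threshold in SCC25 (adjusted p = 0.188). The call in SCC25 was also lost with no filter on low counts (limma, adjusted p = 0.0723), with DESeq2 on the recovered reads (adjusted p = 0.0698), and without squamocin replicate 2 or 3 or DMSO replicate 1 or 3 (limma, adjusted p = 0.0749, 0.150, 0.0901 and 0.181).

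**Figure D3:**
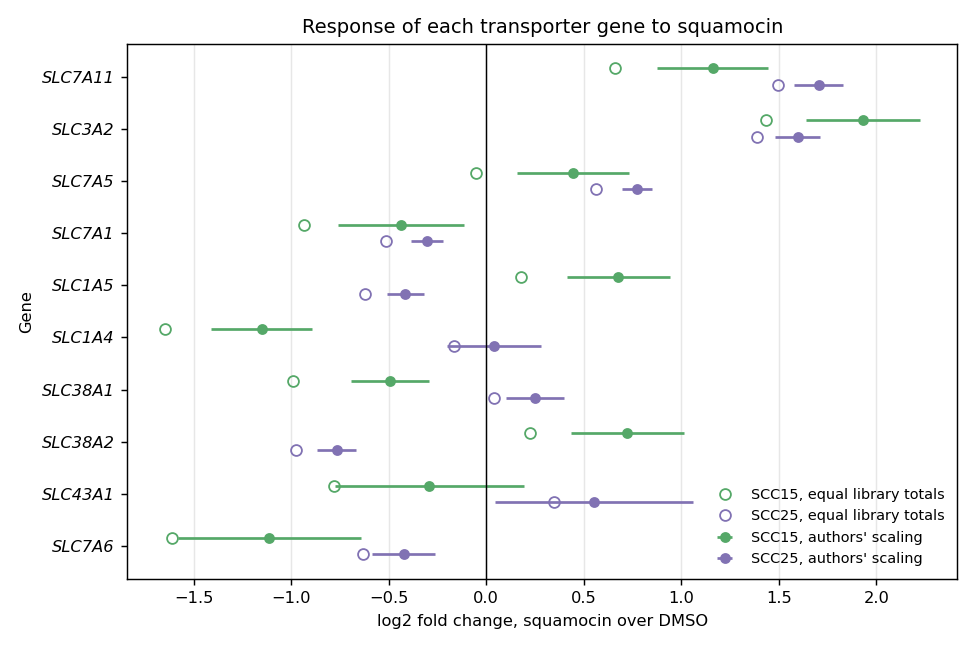
Log2 fold change of squamocin over DMSO for each transporter gene in SCC15 (green) and SCC25 (purple). Filled points are the limma estimates with the authors' scaling and lines their 95% intervals, and open points are the estimates with equal library totals. The filled points of SLC1A5, SLC38A1 and SLC38A2 lie on opposite sides of 0 in the 2 lines.

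The responses of SCC15 and SCC25 were compared directly in 1 limma contrast over all 12 libraries. Of the 10 genes, 2 responded more positively in SCC15 (SLC38A2 and SLC1A5) and 5 less so (SLC1A4, SLC43A1, SLC38A1, SLC7A6 and SLC7A11), where 26.1% and 26.0% of the genes tested in both lines did (52.2% in all). SLC3A2, SLC7A5 and SLC7A1 did not pass the threshold, although the differences of SLC3A2 (0.33, adjusted p = 0.0301) and SLC7A5 (-0.32, adjusted p = 0.0381) did with DESeq2 on the recovered reads, and that of SLC7A5 also with TMM factors (-0.37, limma, adjusted p = 0.0448) and with edgeR (-0.36, adjusted p = 0.0438). For SLC43A1 the difference of -0.84 (limma, adjusted p = 0.0434) was lost when any 1 of 7 libraries was left out, namely squamocin replicate 2 or DMSO replicate 1 or 3 of SCC15 and squamocin replicate 2 or 3 or DMSO replicate 1 or 3 of SCC25 (adjusted p from 0.0668 to 0.111).

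Ordered by level within a line, in normalized counts per kilobase of exon, SLC7A5 was the highest of the 10 with DMSO in SCC15 at 2546, followed by SLC38A2 (2279), SLC3A2 (885), SLC1A5 (528), SLC38A1 (467), SLC7A1 (240), SLC7A6 (231), SLC7A11 (70.5), SLC1A4 (42.8) and SLC43A1 (14.2). Only the libraries of SLC7A1 and SLC7A6 overlapped among neighbours in this order. With squamocin, SLC38A2 (3777), SLC7A5 (3476) and SLC3A2 (3392) overlapped, each with the next in this order. In SCC25 with DMSO, the order was SLC7A5 (5038), SLC38A2 (1776), SLC3A2 (1673), SLC1A5 (1369), SLC7A1 (662), SLC38A1 (498), SLC7A11 (92.0), SLC7A6 (62.0), SLC1A4 (26.3) and SLC43A1 (11.01), and no neighbours overlapped. With squamocin, SLC3A2 (5067) passed SLC38A2 (1045) to stand next to SLC7A5 (8600), and SLC38A2 came down to the level of SLC1A5 (1027), with overlap between the libraries of the pair. SLC3A2 took 12.1% of the summed level of the 10 genes with DMSO in SCC15 against 27.6% with squamocin, and in SCC25 these shares were 14.9% and 29.4%. The order and the shares depend on the length used. Per kilobase of the canonical transcript, SLC38A2 (3094) and SLC3A2 (3002) stood above SLC7A5 (2662) with DMSO in SCC15, SLC3A2 ranked first in the other 3 groups, and its share was 28.2% with DMSO against 51.9% with squamocin in SCC15 and 34.4% against 56.3% in SCC25.

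Genes around these transporters were counted in lists written from general knowledge, and no list was tested as a set. The counts of each list below stand beside shares over all tested genes. These were 30.9% higher and 30.0% lower in SCC15, and 38.3% and 38.5% in SCC25. With equal library totals, 2357 genes were higher and 8033 lower of 15902 in SCC15, and 5032 and 7839 of 16539 in SCC25. Of 30 other amino acid transporters of the plasma membrane, 13 had enough counts to be tested in SCC15 and 15 in SCC25. In SCC15, 2 were called higher and 5 lower, and in SCC25, 6 and 6, with median log2 fold changes of -0.43 and 0.12, and of -0.92 and -0.084 with equal library totals. SLC1A3, a glutamate and aspartate importer, fell in both lines, by 2.03 in SCC15 (limma, adjusted p = 1.50e-05) and by 2.24 in SCC25 (adjusted p = 8.81e-10) on the log2 scale. SLC6A7, a proline transporter, was at the limit of counting with DMSO in SCC15 (0.85, 0.79 and 0.87 normalized counts, 1 read in each library) and held 31.3, 25.1 and 27.4 with squamocin, at least 11.1-fold higher than the 3 reads per library taken as a floor, which covers counting error only. In SCC25, SLC6A7 rose from 19.3, 24.3 and 19.5 to 131, 141 and 141 (log2 fold change 2.66, limma, adjusted p = 2.79e-08). SLC36A4 had opposite calls, at -0.43 in SCC15 and 0.72 in SCC25 (limma, adjusted p = 0.00936 and 4.40e-06), and so had the taurine transporter SLC6A6, at 0.49 and -0.42 (adjusted p = 0.0219 and 5.08e-05), although the rise of SLC6A6 in SCC15 came to -0.0028 with equal library totals.

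Inside the cell, the lysosomal and vesicular transporters counted 1 higher and 4 lower of 9 tested in SCC15 and 2 higher and 4 lower of 9 in SCC25, with medians of -0.39 and -0.12. Of all tested genes, 30.0% were called lower in SCC15 and 38.5% in SCC25. The number lower in SCC15 was 8 with equal library totals and 7 without squamocin replicate 3. SLC38A7, which exports glutamine and asparagine from lysosomes, fell by 1.57 in SCC15 (limma, adjusted p = 2.99e-05) and by 1.81 in SCC25 (adjusted p = 1.07e-08). SLC36A1, a proton-coupled carrier of small amino acids, and CTNS, the lysosomal cystine exporter, also fell in both lines, with log2 fold changes of -1.21 and -0.62 in SCC15 and -0.77 and -0.84 in SCC25 (limma, adjusted p from 1.30e-05 to 0.00480). Of the mitochondrial carriers, 1 of 10 was called higher and 5 lower in SCC15, and 1 and 6 in SCC25, with medians of -0.16 and -0.25, and 8 were lower in SCC15 with equal library totals. The one that rose was SLC25A22, a glutamate carrier, with normalized counts of 1469, 1406 and 1481 with DMSO and 2977, 3081 and 3294 with squamocin in SCC15, and 1725, 1880 and 1891 against 3816, 3733 and 3737 in SCC25. Its log2 fold change was 1.10 and 1.04 (limma, adjusted p = 5.27e-05 and 6.81e-10). SFXN2 and the aspartate-glutamate carrier SLC25A13 fell in both lines, with log2 fold changes of -1.03 and -1.12 in SCC15 and -1.13 and -0.45 in SCC25 (limma, adjusted p from 5.85e-07 to 0.00559).

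In the list of kinases and transcription factors of the amino acid response, most genes stood higher with squamocin, but the kinases were mixed. Of the 15 genes, 11 were called higher in each line, with 1 lower in SCC15 and 3 in SCC25, and the medians were 0.75 and 1.01. Among the kinases, EIF2AK1 was called higher in both lines (log2 fold change 0.48 in SCC15 and 0.18 in SCC25) and EIF2AK3 only in SCC25 (1.04). EIF2AK2 was called lower in SCC15 (-0.86) and EIF2AK4 in SCC25 (-0.29), and neither passed the threshold in the other line. DDIT3 (CHOP) went from 193, 167 and 168 normalized counts to 2877, 2820 and 5142 in SCC15, and from 593, 621 and 600 to 3748, 3759 and 3732 in SCC25, log2 fold changes of 4.30 and 2.63 (limma, adjusted p = 1.62e-05 and 1.66e-13). TRIB3, a pseudokinase that restrains ATF4, rose by 3.09 in SCC15 and 1.78 in SCC25, and CEBPB, a partner of ATF4, by 2.04 and 3.01 (limma, adjusted p from 2.00e-14 to 0.000121). MYC had opposite calls, with 636, 618 and 612 normalized counts with DMSO and 1170, 983 and 1003 with squamocin in SCC15, and 6310, 6589 and 6418 against 1824, 1674 and 1789 in SCC25. Its log2 fold change was 0.75 in SCC15 (limma, adjusted p = 0.000518), or 0.26 and not past the threshold with equal library totals (adjusted p = 0.119), and -1.87 in SCC25 (adjusted p = 2.65e-12). These are transcript counts, whereas the study reports that MYC protein decreased with squamocin in both lines. Scaled to equal totals, 7 of the 15 were called higher and 3 lower in SCC15, and 10 and 4 in SCC25.

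Enzymes that use the imported amino acids counted 13 higher and 2 lower of 16 tested in SCC15 and 11 higher and 5 lower of 18 in SCC25, with medians of 0.76 and 0.79. ASNS, which makes asparagine from aspartate with nitrogen from glutamine, rose from 36.7, 29.3 and 25.3 to 490, 433 and 352 normalized counts in SCC15 and from 50.8, 40.5 and 28.3 to 384, 370 and 518 in SCC25, log2 fold changes of 3.76 and 3.40 (limma, adjusted p = 1.39e-05 and 7.10e-09). ODC1, the first enzyme of polyamine synthesis from ornithine, rose by 1.55 and 2.14, and GCLM, the modifier subunit of the enzyme that starts glutathione synthesis from cysteine, by 1.11 and 1.96 (limma, adjusted p from 1.72e-12 to 9.04e-05). SHMT2, the mitochondrial serine hydroxymethyltransferase, had opposite calls at 1.53 and -0.23, as had BCAT2, a branched-chain aminotransferase, at 0.50 and -0.15 (limma, adjusted p from 2.28e-05 to 0.0308). The value of BCAT2 in SCC15 came to 0.31 without squamocin replicate 3 and to -0.0017 with equal library totals. Under equal totals, 8 of these enzymes were called higher and 2 lower in SCC15, and 11 and 6 in SCC25.

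Of 24 genes of amino acid sensing upstream of mTORC1, 14 were called higher and 4 lower in SCC15 and 17 and 4 in SCC25, with medians of 0.46 and 0.63. With equal library totals these counts became 5 and 8 in SCC15, where the median was -0.032, and 13 and 6 in SCC25. LAMTOR5, a subunit of the Ragulator complex, rose by 1.57 and 1.27 on the log2 scale (limma, adjusted p = 0.000510 and 1.00e-10), and DDIT4 (REDD1), an inhibitor of mTORC1, by 2.95 and 0.93 (adjusted p = 1.06e-05 and 2.50e-08). CASTOR2, a relative of the arginine sensor, fell by 1.02 in SCC15 (limma, adjusted p = 0.0489), or by 0.58 without squamocin replicate 3, and by 2.31 in SCC25 (adjusted p = 7.23e-05). SESN3, of the family of the leucine sensor Sestrin2, had opposite calls at -1.52 in SCC15 and 1.44 in SCC25, and so had FNIP2, a partner of folliculin, at -1.19 and 0.57 (limma, adjusted p from 7.30e-08 to 0.00262).

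**Figure D4:**
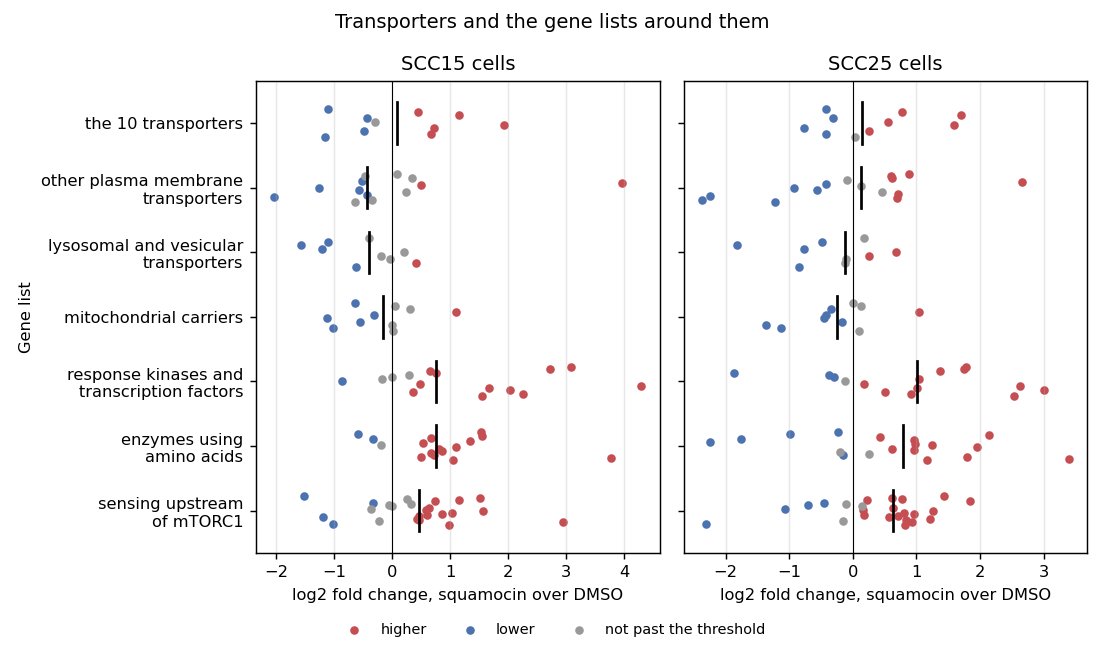
Log2 fold change of squamocin over DMSO for each tested gene of the 7 lists in SCC15 (left) and SCC25 (right). Points are genes, red where called higher, blue where called lower and grey where not past the threshold in limma, and black bars are the medians of a list. With the authors' scaling, the median of the 10 transporters was 0.076 in SCC15 and 0.15 in SCC25, and those of the response factors and the enzymes lie between 0.75 and 1.01.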

How the data were processed

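The 12 RNA libraries came from SCC15 and SCC25 cells kept with squamocin or DMSO for 24 h, 3 per group. The submitters' processing notes name HISAT2 (2.0.5), featureCounts (1.5.0-p3) and the build GRCh38. The deposited signal of a gene is its number of reads over a size factor that the authors set for each library within a cell line, although the headers of the SCC25 table say FPKM. Multiplied back, 100% of values gave whole reads (tolerance 0.01 reads). The authors' own means, fold changes and p-values were also in the tables and were not used.

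Values were log2-transformed with a pseudocount of 1 and tested two-sided with limma 3.58.1 (moderated with a trend, R 4.3.3) over the 15902 genes of SCC15 and 16539 of SCC25 with a mean of at least 10, with Benjamini-Hochberg adjustment, and the difference between the lines over 14454 genes. Genes of the lists other than the 10 were named by rule, as the first 3 of a list called alike in both lines by the smaller absolute log2 fold change and the 2 with opposite calls that differed most. The EIF2AK kinases of the response list, genes that overlap one of the 10 and cell type markers were named outside this rule. The alternatives were pseudocounts of 0.1 and 10, no filter, at least 10 in every library, TMM factors, equal library totals, DESeq2 1.42.0 and edgeR 4.0.16 on recovered reads, the replicate block, each library left out and an absolute log2 fold change above 1. Canonical transcript lengths, and the lists under other scalings or without 1 library, were added after the data had been seen. Exonic lengths and overlaps are from GENCODE release 44. The scripts were tested on simulated data. The 10 genes, the lists and the tests were chosen with earlier results of these data known.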

Additional observations from a re-analysis of the deposited data

Results flagged for a closer look

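The response to squamocin differed between SCC15 and SCC25 in a limma contrast of the lines for 7 of the 10 transporter genes. As SCC15 minus SCC25 on the log2 scale, the difference was 1.49 for SLC38A2, 1.09 for SLC1A5, -0.54 for SLC7A11, -0.69 for SLC7A6, -0.74 for SLC38A1, -0.84 for SLC43A1 and -1.19 for SLC1A4. Among all genes tested in both lines, 52.2% were called in this contrast. The treatments overlapped for SLC43A1 in both lines.

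Among the other transporters, the difference was 0.92 for SLC6A6, -1.14 for SLC36A4 and -0.67 for SLC25A13. In the amino acid response it was 2.62 for MYC, 1.67 for DDIT3, 1.31 for TRIB3 and -0.97 for CEBPB. Among the enzymes it was 1.76 for SHMT2, 0.65 for BCAT2, -0.59 for ODC1 and -0.85 for GCLM. In the sensing of amino acids it was 2.02 for DDIT4, -1.76 for FNIP2 and -2.96 for SESN3. SESN3 fell in SCC15 from 34.1, 30.0 and 34.9 normalized counts to 12.8, 7.98 and 12.4, and rose in SCC25 from 242, 201 and 261 to 670, 676 and 562.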

How the results depend on the processing

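The number of transporter genes called depended on the scaling. With equal library totals, 2 were called higher in SCC15 and 3 in SCC25, and the median log2 fold change of the 10 was -0.42 and -0.062. With an absolute log2 fold change above 1 also required, SCC15 had 2 rising and 2 falling genes and SCC25 had 2 rising and 0 falling, beside 4 falling there at the adjusted p alone. Leaving out 1 library gave 4 to 5 higher, 3 to 4 lower and medians of -0.019 to 0.15 in SCC15, 4 to 5 higher, 4 lower and medians of 0.11 to 0.17 in SCC25, and 2 to 3 higher and 4 to 6 lower in the contrast of the lines. Directions turned with equal library totals for SLC7A5 in SCC15 (-0.054) and SLC1A4 in SCC25 (-0.17), for SLC1A4 in SCC25 also without squamocin replicate 1 (-0.0020) or 3 (-0.011), in a range of -0.011 to 0.14 with a library left out, and for the difference of SLC7A1 without squamocin replicate 3 of SCC15 (0.029, in a range of -0.22 to 0.029). None of these values passed the threshold. The cause of these changes was not tested. Of 278 values of single genes and ratios under another setting, 261 kept their direction and side of the threshold, as did 261 of 288 with a library left out. With equal library totals, 22.7% of the genes called in SCC15 were higher, against 50.8% with the authors' scaling, and 39.1% against 49.9% in SCC25.

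Replicate numbers did not pair the samples, since the deviations of libraries of the 2 treatments correlated between -0.051 and 0.049. With the replicate block, 4 genes were called higher in SCC25 and 4 lower in the contrast of the lines, SLC43A1 being the one lost (limma, adjusted p = 0.05004 and 0.0658), and the other counts were 5 and 4 in SCC15, 4 lower in SCC25 and 2 higher in the contrast. Depth limited SLC43A1, which had 31 reads in its lowest library.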
